A study of Homo sapiens with 6 samples.

Results

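The 7SK small nuclear ribonucleoprotein (snRNP) and the kinase it holds, P-TEFb, were followed through 8 genes of the myeloma line KMS27: RN7SK, LARP7, MEPCE, HEXIM1, HEXIM2, CDK9, CCNT1 and CCNT2. The genes were chosen by name, with earlier results of these data known. Each transcript of the deposited table whose gene symbol is one of these names was taken, and its abundance was summed per gene. All 8 were found, among 63677 genes, with 50 transcripts. Each passed the filter on low values, a mean of 1 TPM or more.

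KMS27 is an established human line of malignant plasma cells. The HA-TAZ group comprised 3 libraries of KMS27 cells overexpressing HA-TAZ, and the control group 3 libraries of KMS27 cells labelled wild type. TAZ, encoded by WWTR1, is a coactivator of the Hippo pathway that binds DNA through TEAD factors, and HA is a peptide tag. Neither the promoter of the HA-TAZ construct nor whether the cells were 1 clone or a pool was given in the sources used here, and HA also stands in the titles of the wild type samples. The labels say that libraries were made in triplicate and name no separate cultures, so p-values measure the spread between these libraries, which may be technical. Total RNA depleted of ribosomal RNA was sequenced from both ends. The value columns of the wild type libraries are named scr, a name that is in no label, and were assigned by elimination; they are called control a, b and c. Whether the control cells carried a construct is not given in the sources used here.

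In the nucleus, most promoters hold an RNA polymerase that has stopped shortly after the start site, with the pausing factors NELF and DSIF bound. P-TEFb, made of the kinase CDK9 and a cyclin T, phosphorylates these factors and the polymerase tail and so releases the polymerase into the gene. Part of the cell's P-TEFb is kept inactive: the RNA 7SK, capped by MEPCE and covered at its 3′ end by LARP7, binds a HEXIM protein, and HEXIM then binds and inhibits the kinase.

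WWTR1 lay at 293 to 306 TPM in HA-TAZ libraries and at 1.69 to 2.69 TPM in controls, as the labels state. TPM is an abundance per transcript length in which every library has the same total, so it is a share, with no read depth per library; the mean values in the authors' deposited table imply 52795484 estimated counts for a typical library. Most genes had lower TPM in HA-TAZ libraries: the median log2 fold change of the 22651 tested genes was −0.27 with TPM as deposited. Libraries were therefore rescaled by median-of-ratios factors, which brought that median to −0.03, and "scaled TPM" means TPM divided by this factor. All 9 plasma cell markers passed the filter. Of these, 1 was called higher (SLAMF7, scaled log2 fold change 0.95, limma adjusted p = 0.0128) and 1 lower (CD38, −0.61, limma adjusted p = 0.0226). Of all genes 4.67% were called higher and 2.63% lower. The summed level of the 9 markers was 2785 to 3217 TPM in HA-TAZ libraries and 4270 to 4825 TPM in controls. Most of that sum was JCHAIN, the joining chain of polymeric immunoglobulins, at 2234 to 2618 TPM with HA-TAZ and 3617 to 4082 TPM in controls (scaled log2 fold change −0.33, limma adjusted p = 0.0654). The other 8 markers summed to 550 to 599 TPM in HA-TAZ libraries and 653 to 743 TPM in controls, lower without overlap. In scaled TPM these 8 summed to 618 to 648 and 614 to 639, with overlap. All 9 summed to 3129 to 3556 and 3991 to 4038 in scaled TPM, lower without overlap. The part of these levels in the results was not tested. In bulk RNA fewer cells of a type and less RNA per cell cannot be told apart. The 3 T cell markers summed to at most 0.559 TPM in any library, and each list of 3 monocyte, epithelial or fibroblast markers to at most 4.89 TPM.

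None of the 8 genes was called in the test over all genes (limma on log2 of scaled TPM + 1, adjusted p under 0.05), where 7.29% of 22651 genes were called. At an unadjusted p under 0.05 there were 2 of the 8, HEXIM1 and MEPCE, against 30.7% of all genes. Scaled values of 3 of the 8 did not overlap between the groups, against 38.5% of all genes. Both shares of the 8 genes are close to those of all genes. The median log2 fold change of the 8 was 0.12, beside −0.03 over all genes tested. Over genes with a mean of at least 5 TPM, a level that each of the 8 reached, the median was 0.04. HEXIM1, an inhibitor of P-TEFb, and MEPCE, which caps 7SK, had the smallest p. They were higher on scaled TPM without overlap, but not with TPM as deposited. CCNT2, a cyclin partner of CDK9, was lower on both scales without overlap. With TPM as deposited 43.6% of all genes were lower without overlap.

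**Figure D1:**
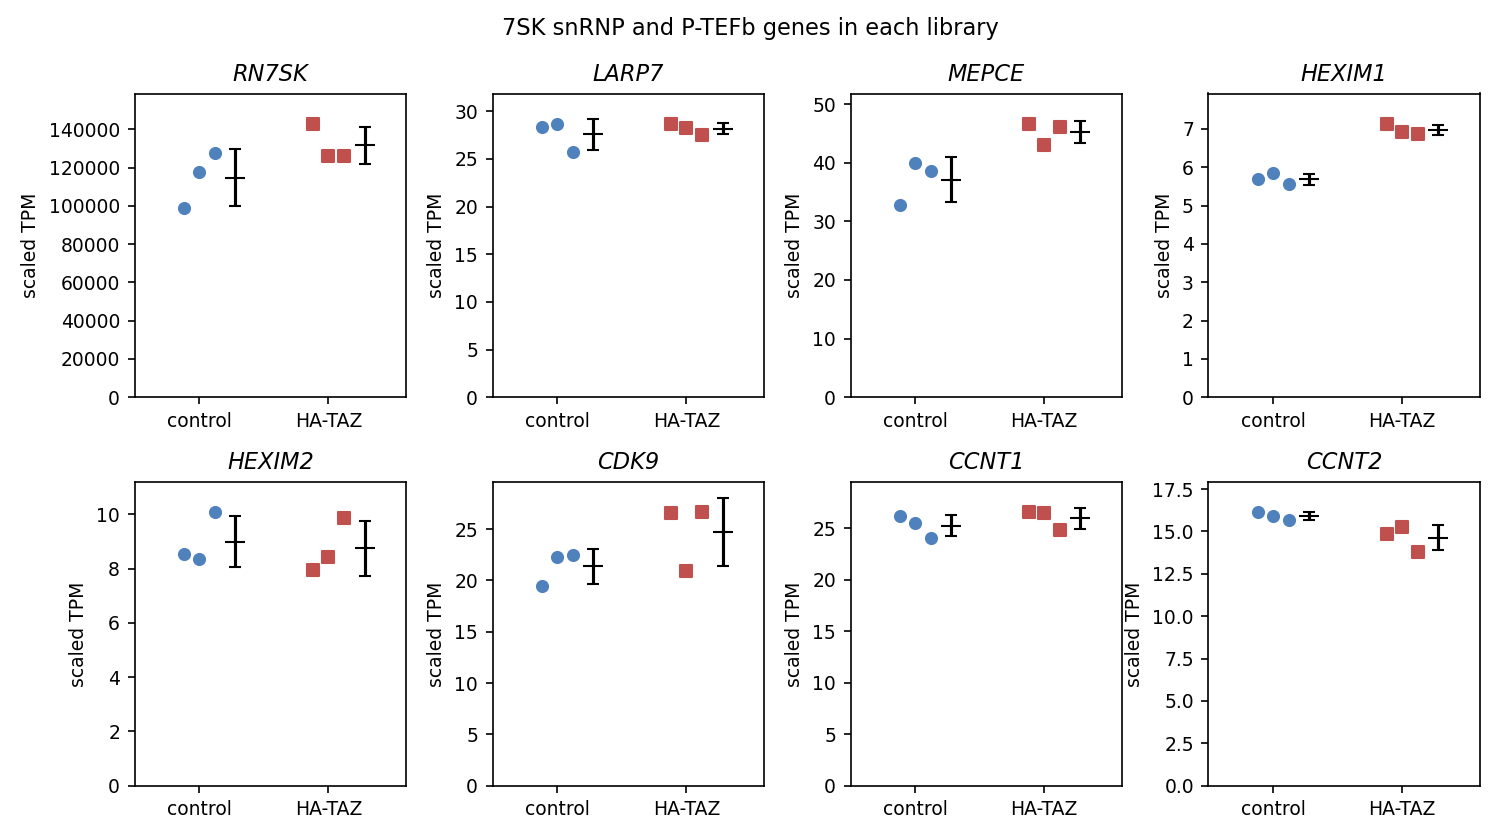
Scaled TPM of the 8 genes in each library, on axes that start at 0. Circles are the 3 control and squares the 3 HA-TAZ libraries, and bars are the mean ± SD; MEPCE and HEXIM1 lie higher and CCNT2 lower in HA-TAZ libraries without overlap, and the other 5 genes overlap.

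RN7SK (ENSG00000202198, chromosome 6) is a single RNA of 331 bases made by RNA polymerase III. Its 5′ end and 3′ end are shown because they carry the sites of its partners; HEXIM recognises GATC (GAUC in the RNA) repeats in the first hairpin, and LARP7 binds the terminal run of uridines. Sequences are from GENCODE release 29 transcripts, written as DNA, with every GATC in capitals in the 5′ stretches.
RN7SK, bases 1 to 100: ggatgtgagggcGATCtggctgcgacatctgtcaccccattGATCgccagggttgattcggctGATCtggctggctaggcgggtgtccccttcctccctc
RN7SKP203, bases 1 to 100: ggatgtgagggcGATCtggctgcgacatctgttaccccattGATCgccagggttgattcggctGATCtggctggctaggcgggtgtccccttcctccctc
RN7SKP255, bases 1 to 100: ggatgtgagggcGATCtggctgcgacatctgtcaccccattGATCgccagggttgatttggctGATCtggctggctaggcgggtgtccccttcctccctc
In the 3′ stretches each TTT is in capitals.
RN7SK, bases 302 to 331: ggcgctgcatgtggcagtctgccTTTcTTT
RN7SKP203, bases 303 to 332: acagtaggagcagaggtgctgctccttgtg
RN7SKP255, bases 284 to 313: tctcagtctgTTTgggctgactgataccat
In RN7SK the GATC motif stood at bases 13 to 16, 42 to 45 and 64 to 67, and nowhere else in the RNA. RN7SKP203 and RN7SKP255 are the gene copies with the highest TPM; both keep the 3 motifs in their first 100 bases, and neither ends in the run of T that closes RN7SK.

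RN7SK was the most abundant of the 8 genes in every library. It was listed at 123728, 122009 and 112223 TPM in HA-TAZ 1, 2 and 3 and at 119404, 128405 and 135121 TPM in control a, b and c. The groups overlapped. The share of TPM was 11.9% ± 0.621 (SD, n = 3) in HA-TAZ and 12.8% ± 0.789 (SD, n = 3) in control libraries, a difference of −0.832 percentage points (exact two-sided permutation p = 0.3). TPM divides by length, and the RNA is short: in the authors' deposited table it accounted for 2.29% of the estimated counts, against a mean of 12.3% of TPM.

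On the scaled values RN7SK stood at 142918, 126184 and 126114 in HA-TAZ libraries and at 98750, 117769 and 127794 in controls. The fold change was 0.20 (log2) ± 0.35 (standard error) with a 95% interval from −0.65 to 1.06 (limma, Benjamini-Hochberg adjusted p = 0.722), and its sign turned with TPM as deposited (−0.10). Leaving out control a moved it to 0.097 and leaving out control c to 0.29, with no call. With its trend, limma takes part of the spread from genes of like level, and RN7SK lies near the top of the range; without the trend the adjusted p was 0.296. In the authors' deposited table its natural log effect was 0.14 ± 0.08 (standard error; q = 0.393).

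The deposited table also listed 308 gene copies of RN7SK, 296 named RN7SKP and 12 named 7SK, of which 131 were at 0 in every library. Together they summed to 424, 466 and 468 TPM in HA-TAZ libraries and to 536, 520 and 597 TPM in controls. As deposited the summed copies were lower in HA-TAZ libraries without overlap, as were 43.6% of all genes (exact two-sided permutation p = 0.1, the smallest value that 3 against 3 libraries allow). In scaled TPM the sums were 489, 482 and 526 against 443, 477 and 565, with overlap (exact two-sided permutation p = 0.8). The copies came to 0.342% to 0.449% of RN7SK. RN7SKP203 had a mean of 200.6 TPM and 85.0% identity to RN7SK, and RN7SKP255 had 77.3 TPM and 83.7% identity. Of the 48 copies tested, 2 were called lower, against 2.63% of all genes, and none higher. RN7SKP181 was at 12.2, 14.9 and 13.8 TPM with HA-TAZ against 24.2, 20.6 and 22.6 TPM in the controls (scaled log2 fold change −0.40, limma adjusted p = 0.0357), and RN7SKP30 at 4.59, 4.54 and 5.11 against 9.03, 8.97 and 10.1 TPM (scaled log2 fold change −0.59, limma adjusted p = 0.042). These 2 were chosen after their values were seen. Both stayed lower under the 13 alternatives, and both calls were lost when any 1 library was left out (limma adjusted p from 0.0701 to 0.119 and from 0.068 to 0.131), with no filter on level (limma adjusted p = 0.0597 and 0.0743) and without the trend (limma adjusted p = 0.0557 and 0.0547). RN7SKP203 shares 117 of its 302 words of 31 bases with RN7SK, so reads of such stretches cannot be told apart. The TPM of RN7SK and of such copies are uncertain to that extent. Of the 48 copies tested, 23 share such a word with RN7SK, while RN7SKP181 and RN7SKP30 share 0. Adding all copies to RN7SK left its log2 fold change at 0.20.

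The other abundant short RNAs of the library gave a reference that needs no scaling. The ratio of RN7SK to RN7SL1 plus RN7SL2, the RNAs of the signal recognition particle, was 0.797, 0.863 and 0.719 in HA-TAZ libraries and 1.29, 1.02 and 1.10 in controls. Every HA-TAZ library lay below every control, a log2 difference of −0.52 (exact two-sided permutation p = 0.1, adjusted over 7 ratios 0.35). RN7SL1 and RN7SL2 together took 15.1% ± 0.831 of TPM in HA-TAZ and 11.4% ± 1.81 in control libraries (SD, n = 3 each), while the share of RN7SK overlapped. The ratio cannot tell a change of one RNA from that of the other.

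MEPCE (ENSG00000146834, chromosome 7), the methyltransferase that caps 7SK and then stays on it, was second in abundance. As deposited it was at 40.4, 41.6 and 41.0 TPM with HA-TAZ against 39.7, 43.6 and 40.7 TPM in the controls, with overlap. After scaling it was at 46.6, 43.0 and 46.1 against 32.8, 40.0 and 38.5, so that each HA-TAZ library lay above each control. The fold change was 0.28 (log2) ± 0.08 (standard error; limma, Benjamini-Hochberg adjusted p = 0.0905), and it was −0.01 with TPM as deposited. Against the median of all genes MEPCE stood 0.26 to 0.31 higher on the log2 scale under all 4 scalings, which shift all genes nearly alike. Against the median of genes with a mean of at least 5 TPM it stood 0.24 higher.

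MEPCE has 2 main coding transcripts. ENST00000310512.2 was at 18.9, 19.1 and 22.6 TPM with HA-TAZ against 14.6, 18.7 and 17.2 TPM in the controls, without overlap even as deposited. It made up 46.8%, 45.8% and 55.1% of the gene in HA-TAZ libraries and 36.9%, 43.0% and 42.3% in controls. The second, ENST00000414441.1, was at 12.4 ± 1.95 against 15.4 ± 0.511 TPM (SD, n = 3 each), lower without overlap as deposited. In scaled TPM its groups overlapped. The coding transcripts of MEPCE together were at 32.6 ± 0.433 against 32.2 ± 1.61 TPM as deposited (SD, n = 3 each), with overlap. In the authors' deposited table ENST00000310512.2 had a natural log effect of 0.41 ± 0.12 (standard error; q = 0.023), and ENST00000414441.1 one of 0.0023 (q = 0.996). The test of all transcripts on scaled TPM gave ENST00000310512.2 a log2 fold change of 0.53 with a standard error of 0.16 (limma adjusted p = 0.126). The difference between the 2 transcripts was not tested.

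LARP7 (ENSG00000174720, chromosome 4), the La-related protein that protects the 3′ end of 7SK, followed MEPCE in abundance. It was at 24.8, 27.3 and 24.5 TPM with HA-TAZ against 34.3, 31.2 and 27.2 TPM in the controls, with HA-TAZ 2 just above control c. Its scaled values, 28.7, 28.3 and 27.5 against 28.4, 28.6 and 25.7, overlapped. The log2 fold change was 0.03 with a 95% interval from −0.11 to 0.17 (limma adjusted p = 0.756), and −0.26 with TPM as deposited. Transcripts typed as protein coding in GENCODE release 29 made up 62.3% of the LARP7 TPM; their sum was 15.5, 16.7 and 16.2 TPM in HA-TAZ libraries and 18.1, 19.7 and 19.3 TPM in controls. That sum was lower without overlap only as deposited: in scaled TPM it was 17.8 ± 0.476 in HA-TAZ libraries, all of them within the range of the controls, which were at 17.1 ± 1.85 (SD, n = 3 each). The other LARP7 transcripts are mostly typed as retained introns or targets of nonsense-mediated decay. Against RN7SK, LARP7 stood at 201 to 224 TPM per 1000000 TPM of RN7SK in HA-TAZ libraries and at 201 to 288 in controls, and MEPCE at 326 to 365 and 301 to 340, both with overlap.

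HEXIM1 (ENSG00000186834) and HEXIM2 (ENSG00000168517), paralogous inhibitors of P-TEFb that neighbour each other on chromosome 17, were the least abundant of the 8 genes in every library. HEXIM1 was at 6.17, 6.70 and 6.11 TPM with HA-TAZ against 6.87, 6.37 and 5.87 TPM in the controls, with overlap. After scaling HEXIM1 was at 7.13, 6.93 and 6.87 in HA-TAZ libraries and 5.68, 5.84 and 5.55 in controls. The groups were then apart, with a spread within each of at most 0.144 (SD, n = 3). The fold change was 0.25 (log2) ± 0.06 (standard error; limma, Benjamini-Hochberg adjusted p = 0.0677), the lowest adjusted p of the 8 genes, and with TPM as deposited it was −0.01. HEXIM1 has 1 transcript, which in the authors' deposited table had a natural log effect of 0.22 ± 0.07 (standard error; q = 0.0189). Relative to the median of all genes HEXIM1 stood 0.26 to 0.28 higher on the log2 scale under the 4 scalings, which shift all genes nearly alike. Against the median of genes with a mean of at least 5 TPM it stood 0.21 higher.

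Of the 41 transcripts of the 8 genes with statistics in the authors' deposited table, these of HEXIM1 and MEPCE were the 2 with a q-value under 0.05, both with a positive effect. Of all transcripts with statistics 5.68% had such a q-value, 4.08% with a positive effect. The limma test of transcripts called 0 of the 30 transcripts tested, 2 of them at an unadjusted p under 0.05, where 0.534% of all transcripts were called.

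HEXIM2 was at 6.87, 8.15 and 8.78 TPM with HA-TAZ against 10.3, 9.11 and 10.6 TPM in the controls. As deposited it was lower in HA-TAZ libraries without overlap, as were 43.6% of all genes. Its scaled values overlapped, at 7.94, 8.42 and 9.86 against 8.54, 8.35 and 10.1. The log2 fold change was −0.04 with a 95% interval from −0.30 to 0.23 (limma adjusted p = 0.843), and turned to 0.04 when control c was left out. The ratio of HEXIM2 to HEXIM1, which needs no scaling, was 1.11, 1.22 and 1.44 in HA-TAZ libraries and 1.50, 1.43 and 1.81 in controls. The ratios overlapped by a narrow margin, HA-TAZ 3 above control b (log2 difference −0.33, exact two-sided permutation p = 0.2, adjusted 0.467). HEXIM2 is the least deeply counted of the 8, with 424 estimated counts in the authors' deposited table against 1948 for HEXIM1.

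The start site windows of HEXIM1 and MEPCE, the genes with the smallest p of the 8, are shown because TAZ reaches DNA through TEAD factors. Windows are from RefSeq (GRCh38.p14), 250 bases before to 50 after the start, with the TEAD motif GGAATG or its reverse complement CATTCC in capitals.
HEXIM1, chr17:45148225-45148524, plus strand: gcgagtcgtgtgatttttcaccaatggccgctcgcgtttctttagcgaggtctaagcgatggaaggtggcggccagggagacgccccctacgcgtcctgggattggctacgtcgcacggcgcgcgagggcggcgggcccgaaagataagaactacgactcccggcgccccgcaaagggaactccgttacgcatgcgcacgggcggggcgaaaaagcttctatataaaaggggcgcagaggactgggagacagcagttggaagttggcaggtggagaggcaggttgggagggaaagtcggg
MEPCE, chr7:100429197-100429496, plus strand: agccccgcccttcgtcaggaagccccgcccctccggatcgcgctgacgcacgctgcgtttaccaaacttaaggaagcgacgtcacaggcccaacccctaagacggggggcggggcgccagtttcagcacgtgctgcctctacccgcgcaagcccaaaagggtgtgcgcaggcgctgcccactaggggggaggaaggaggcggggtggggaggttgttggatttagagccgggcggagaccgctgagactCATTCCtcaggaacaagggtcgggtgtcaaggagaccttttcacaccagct
The HEXIM1 window held no match. The MEPCE window held 1, beginning at base 250 of the window, and the other MEPCE start sites in the table held none. RefSeq windows were at hand for 7 of the 8 genes, 12 windows in all, and 2 of them (MEPCE and CCNT1) held the motif on either strand, against 14.0% of 35116 windows. A match is a run of letters and not a measured binding site.

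CDK9 (ENSG00000136807, chromosome 9), the kinase, was at 23.0, 20.2 and 23.7 TPM in HA-TAZ libraries and 23.5, 24.3 and 23.8 TPM in controls. After scaling the values were 26.6, 20.9 and 26.6 against 19.4, 22.3 and 22.5; HA-TAZ 2 lay among the controls and the other HA-TAZ libraries above them. The log2 fold change was 0.19 with a 95% interval from −0.09 to 0.48 (limma adjusted p = 0.302), and −0.10 with TPM as deposited. Leaving out HA-TAZ 2 moved it to 0.31, still without a call. Of the CDK9 TPM, 50.5% was in transcripts typed as protein coding.

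CCNT1 (ENSG00000129315, chromosome 12) encodes cyclin T1, the main partner of CDK9. It was at 23.0, 25.6 and 22.1 TPM with HA-TAZ against 31.6, 27.8 and 25.5 TPM in the controls, with HA-TAZ 2 above control c. Scaled values were 26.5, 26.5 and 24.8 against 26.1, 25.5 and 24.1, with overlap and a log2 fold change of 0.04 (95% interval −0.10 to 0.17, limma adjusted p = 0.67); with TPM as deposited it was −0.25. CCNT1 and CDK9 were close: CDK9 stood above CCNT1 in HA-TAZ 1 and HA-TAZ 3, and CCNT1 above CDK9 in the other 4 libraries. The ratio of CCNT1 to CDK9 was 0.999, 1.27 and 0.932 in HA-TAZ and 1.35, 1.15 and 1.07 in control libraries (exact two-sided permutation p = 0.4).

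CCNT2 (ENSG00000082258, chromosome 2) encodes the alternative cyclin T2. It was lower in HA-TAZ libraries without overlap on both scales. As deposited it was at 12.9, 14.7 and 12.3 against 19.5, 17.4 and 16.6 TPM. On that scale 43.6% of all genes were lower without overlap. After scaling CCNT2 was at 14.8, 15.3 and 13.8 against 16.1, 15.9 and 15.7. Scaled values of 38.5% of all genes did not overlap, in either direction. The scaled log2 fold change was −0.11 ± 0.06 (standard error; limma adjusted p = 0.233). With TPM as deposited it was −0.40 and CCNT2 was called lower (limma adjusted p = 0.0499), as were 13.5% of all genes. It was also called, at −0.35, when libraries were rescaled without RN7SK, RN7SL1 and RN7SL2 (limma adjusted p = 0.0488). In that setting 2821 of the 22651 genes tested were called lower. On scaled TPM the log2 fold change of CCNT2 was −0.070 without HA-TAZ 3. Relative to the median of all genes the difference was smaller than as deposited, −0.09 to −0.12 on the log2 scale under the 4 scalings. Against the median of genes with a mean of at least 5 TPM it was −0.15.

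The ratio of CCNT2 to CCNT1 does not depend on the scaling. It was 0.559, 0.575 and 0.557 in HA-TAZ libraries and 0.617, 0.624 and 0.650 in controls, so that every HA-TAZ library lay below every control. The log2 difference was −0.16, with a pooled SD of 0.03 (exact two-sided permutation p = 0.1, the smallest possible, adjusted over 7 ratios 0.35). Transcripts typed as protein coding made up 34.1% of CCNT2 and 47.5% of CCNT1. Over these alone the ratio was 0.394, 0.403 and 0.427 in HA-TAZ libraries and 0.510, 0.405 and 0.426 in controls, with overlap (log2 difference −0.13, exact two-sided permutation p = 0.3). With the leading transcript of each gene the log2 difference was −0.46. The CCNT2 transcript with the highest TPM, ENST00000475094.1, is typed as a retained intron and was at 2.82, 5.14 and 3.48 against 5.50, 5.99 and 5.91 TPM. The coding transcript ENST00000295238.6 was at 2.45, 2.92 and 2.14 against 3.21, 2.58 and 2.81 TPM, with overlap. Its part of the gene was 19.1%, 19.8% and 17.4% in HA-TAZ libraries and 16.4%, 14.9% and 16.9% in controls.

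**Figure D2:**
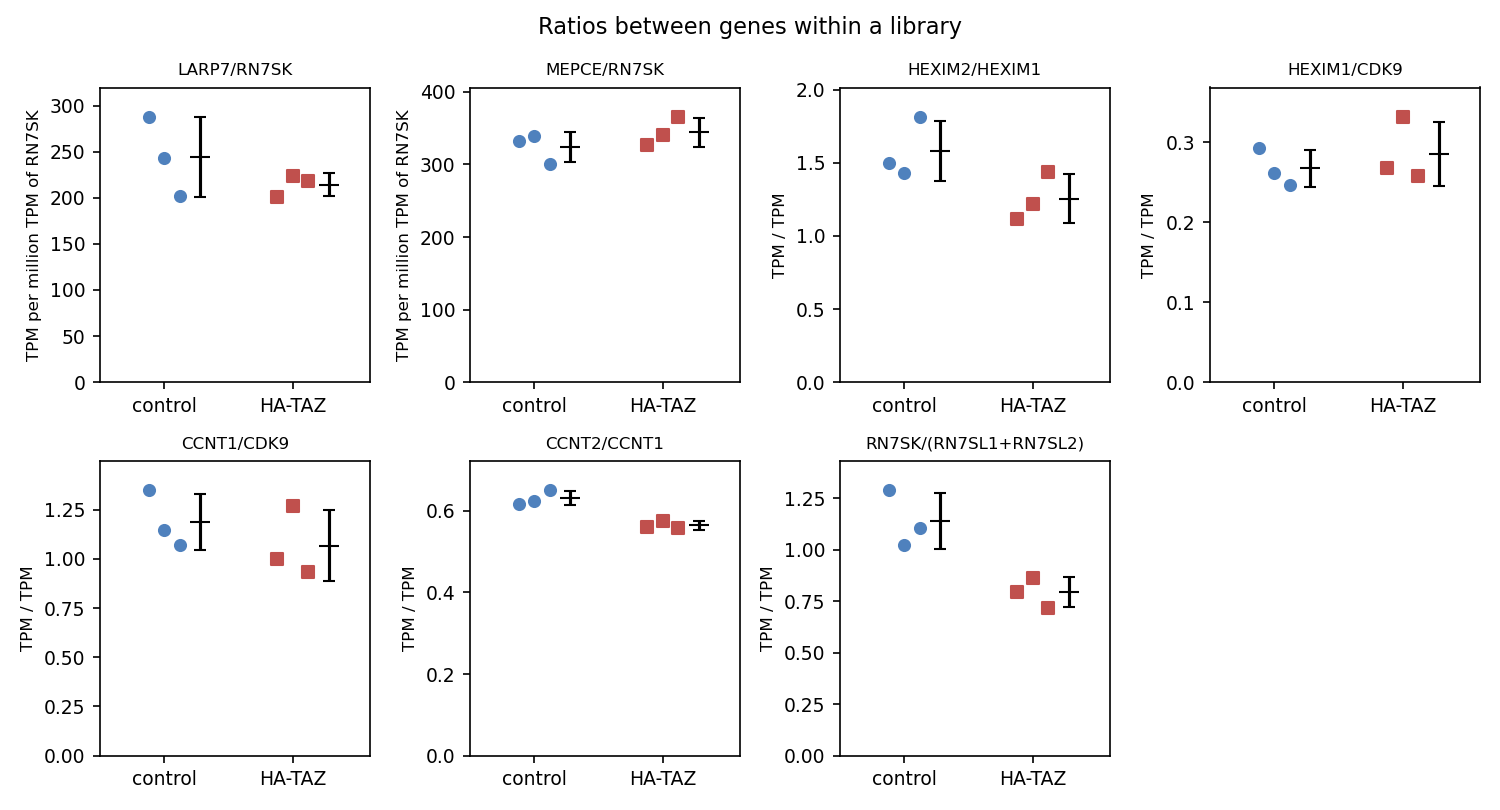
The 7 ratios between genes within a library, which need no scaling between libraries, on axes from 0; circles are control and squares HA-TAZ libraries, bars the mean ± SD. CCNT2 over CCNT1 and RN7SK over RN7SL1 and RN7SL2 are lower in all 3 HA-TAZ libraries than in any control, and the other 5 ratios overlap.

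The exact permutation p of the 5 ratios that overlap was 0.2 to 0.6, and HEXIM1 over CDK9 was 0.268, 0.332 and 0.258 in HA-TAZ and 0.293, 0.262 and 0.247 in control libraries. By TPM the order was RN7SK, MEPCE, LARP7, then CCNT1 and CDK9 in either order, then CCNT2, HEXIM2 and HEXIM1, in each of the 6 libraries. The only neighbours in that order that changed places between libraries were CCNT1 and CDK9. The ranges of LARP7 and CCNT1 overlapped within both groups, and those of CCNT1 and CDK9 within the HA-TAZ group.

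**Figure D3:**
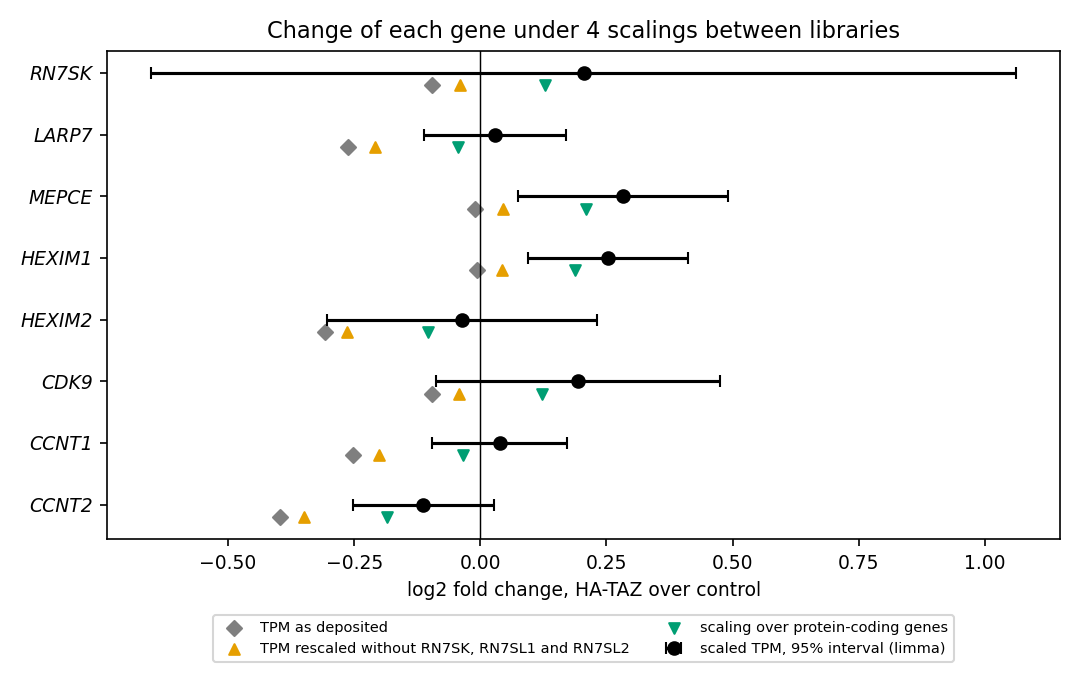
Log2 fold change of each gene, HA-TAZ over control. Black circles are the scaled TPM with the 95% interval, and the diamonds and triangles are the 3 other scalings; the 8 genes shift together between scalings, and all 8 are negative with TPM as deposited.

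With TPM as deposited all 8 log2 fold changes were negative, from −0.40 for CCNT2 to −0.01 for HEXIM1. With scaled TPM 6 of the 8 were positive. HEXIM1 and MEPCE were the highest of the 8 relative to the median of all genes under each of the 4 scalings, and CCNT2 the lowest. A change of scaling shifts all genes and their median by nearly the same amount. The 4 scalings are therefore not separate tests of that order.

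Several of the genes overlap others in GENCODE release 29, and use of the strand by the quantification is not given in the sources used here, so their reads may be mixed. On the opposite strand, LARP7 overlaps ZGRF1 (13.1 TPM with HA-TAZ against 17.1 TPM in the controls on average) and a cluster of microRNA genes, MEPCE overlaps ZCWPW1 (2.68 and 3.21 TPM), HEXIM1 and HEXIM2 overlap AC138150.1 (2.20 and 3.47 TPM), and CCNT2 overlaps CCNT2-AS1 (0.887 and 1.12 TPM). Also on the opposite strand, LARP7 overlaps AC106864.1 (1.91 and 3.04 TPM) and HEXIM2 overlaps AC138150.2 (0.240 and 0.358 TPM). RN7SK overlaps another gene ID of the same name on its own strand. CDK9 holds MIR2861 and MIR3960 on its own strand. For CCNT1 no overlapping gene was found.

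The other genes of the pathway were taken as 6 lists with 59 genes, of which 57 were tested. Of these, 6 were called higher in HA-TAZ libraries, against 4.67% of all genes, and none lower, against 2.63%; with TPM as deposited 1 was called higher, against 1.15% of all genes, and 7 lower, against 13.5%. Their median log2 fold change was 0.11, beside −0.03 over all genes. Among the 12613 genes with a mean of at least 5 TPM the median was 0.04, and 1513 were called higher. At an unadjusted p under 0.05, 18 were higher, against 16.6% of all genes, and 6 lower, against 14.1%. The lists were chosen with earlier results of these data known.

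Of the super elongation complex, which carries P-TEFb to the polymerase, 10 genes were tested. Their median log2 fold change on scaled TPM was −0.09, and 4 of the 10 were positive. Calls at the adjusted threshold were 2 higher, against 4.67% of all genes, and 0 lower, against 2.63%. At an unadjusted p under 0.05 (limma), 4 were higher, against 16.6% of all genes, and 3 lower, against 14.1%. The 3 were AFF1 (−0.14), AFF3 (−0.49) and MLLT3 (−0.26, limma adjusted p = 0.0504), each lower without overlap on both scales. With TPM as deposited 43.6% of all genes were lower without overlap. On that scale 1 gene of the complex was called higher, against 1.15% of all genes, and 3 lower, against 13.5%. ELL2, an elongation factor with a known role in immunoglobulin secretion by plasma cells, was at 66.4, 73.9 and 70.4 TPM with HA-TAZ against 57.5, 45.3 and 42.0 TPM in the controls. It was higher without overlap on both scales, with a log2 fold change of 0.84 and a standard error of 0.07 (limma adjusted p = 0.00789). ELL2 kept its call under each of the 4 scalings, at 0.54 with TPM as deposited, and among 13 alternatives lost it only when HA-TAZ 1 was left out (limma adjusted p = 0.0541). MLLT1 (ENL), a reader of acetylated histones, was at 32.6, 33.1 and 32.8 against 29.8, 29.7 and 30.6 TPM (log2 fold change 0.42, limma adjusted p = 0.0371). The MLLT1 call was lost when any 1 library was left out (limma adjusted p from 0.0541 to 0.124) and with TPM as deposited (0.13).

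All 6 pausing factors of NELF and DSIF were tested. On scaled TPM 2 were called higher, against 4.67% of all genes, and none lower. The median log2 fold change was 0.25, and none was called with TPM as deposited. SUPT4H1, the small DSIF subunit, was at 70.4, 77.4 and 66.6 TPM with HA-TAZ against 79.6, 71.9 and 68.0 TPM in the controls. Its log2 fold change was 0.26 on scaled TPM (limma adjusted p = 0.0363) and −0.032 with TPM as deposited. NELFE, the RNA-binding subunit of NELF, was at 0.27 on the scaled log2 scale (limma adjusted p = 0.0492) and at −0.021 with TPM as deposited. Both calls were lost when any 1 library was left out, with limma adjusted p from 0.063 to 0.121 for SUPT4H1 and from 0.0764 to 0.144 for NELFE. NELFE has 6 gene IDs in the deposited table. Summed, they gave 0.39 (limma adjusted p = 0.0181).

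Of the 7 genes for recruitment and release of P-TEFb, 1 (PPP1CA) was called higher, against 4.67% of all genes, and none lower. The median log2 fold change was 0.18. PPP1CA, a catalytic subunit of protein phosphatase 1, which can free P-TEFb from 7SK, was at 48.4, 51.2 and 51.6 TPM with HA-TAZ against 51.1, 49.4 and 47.3 TPM in the controls. Its log2 fold change was 0.33 (limma adjusted p = 0.0322), and with TPM as deposited it was 0.03 with no call; the call was also lost when any 1 library was left out (limma adjusted p from 0.0652 to 0.117). JMJD6, a Jumonji-domain protein linked to the release of paused polymerase, was next by p, at 0.23 (limma adjusted p = 0.0845), and at −0.06 with TPM as deposited.

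Among the 8 tested kinases and cyclins of the general transcription kinases, none was called, against 7.29% of all genes. With TPM as deposited 2 were called lower, against 13.5% of all genes. CDK7, the kinase of TFIIH, is split over 2 gene IDs. The ID on the primary assembly was at 14.8, 20.8 and 15.2 TPM with HA-TAZ against 17.3, 10.5 and 10.5 TPM in the controls, with a scaled log2 fold change of 0.68 (limma adjusted p = 0.0666); it was called with a filter at a mean TPM of 5 (limma adjusted p = 0.0439). Over both IDs TPM summed to 20.5, 24.8 and 17.7 in HA-TAZ and 24.4, 19.2 and 20.4 in control libraries (log2 fold change of the sum 0.26, limma adjusted p = 0.16). CDK19, a Mediator kinase, was at 4.99, 6.25 and 5.72 against 8.99, 8.37 and 7.87 TPM. The scaled log2 fold change of CDK19 was −0.24 (limma adjusted p = 0.0918). With TPM as deposited CDK19 was called lower at −0.50 (limma adjusted p = 0.0378). Of the 4 hnRNPs that bind 7SK once HEXIM and P-TEFb have left, none was called, against 7.29% of all genes. SYNCRIP and HNRNPA2B1, those with the smallest p, were at 0.11 and 0.10 on the scaled log2 scale and at −0.19 and −0.20 with TPM as deposited.

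Of 22 genes for the synthesis and protection of RN7SK, 1 was called higher, close to the 4.67% of all genes, and none lower. The median log2 fold change was 0.13. With TPM as deposited none was called higher and 2 lower, against 13.5% of all genes called lower. The gene called on scaled TPM was SNAPC1, a subunit of the complex that binds the upstream promoter element of RN7SK and of the U6 and U1 RNAs. It was at 7.50, 8.52 and 7.41 TPM with HA-TAZ against 6.05, 6.39 and 5.70 TPM in the controls, without overlap as deposited. Its log2 fold change was 0.58 ± 0.08 (standard error; limma adjusted p = 0.0213); it was 0.32 with TPM as deposited (limma adjusted p = 0.0622), and the adjusted p was 0.0521 to 0.0887 when any 1 library was left out. POLR3G, a subunit of RNA polymerase III, was at 0.28 (limma adjusted p = 0.0513), and at −0.00099 with TPM as deposited.

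**Figure D4:**
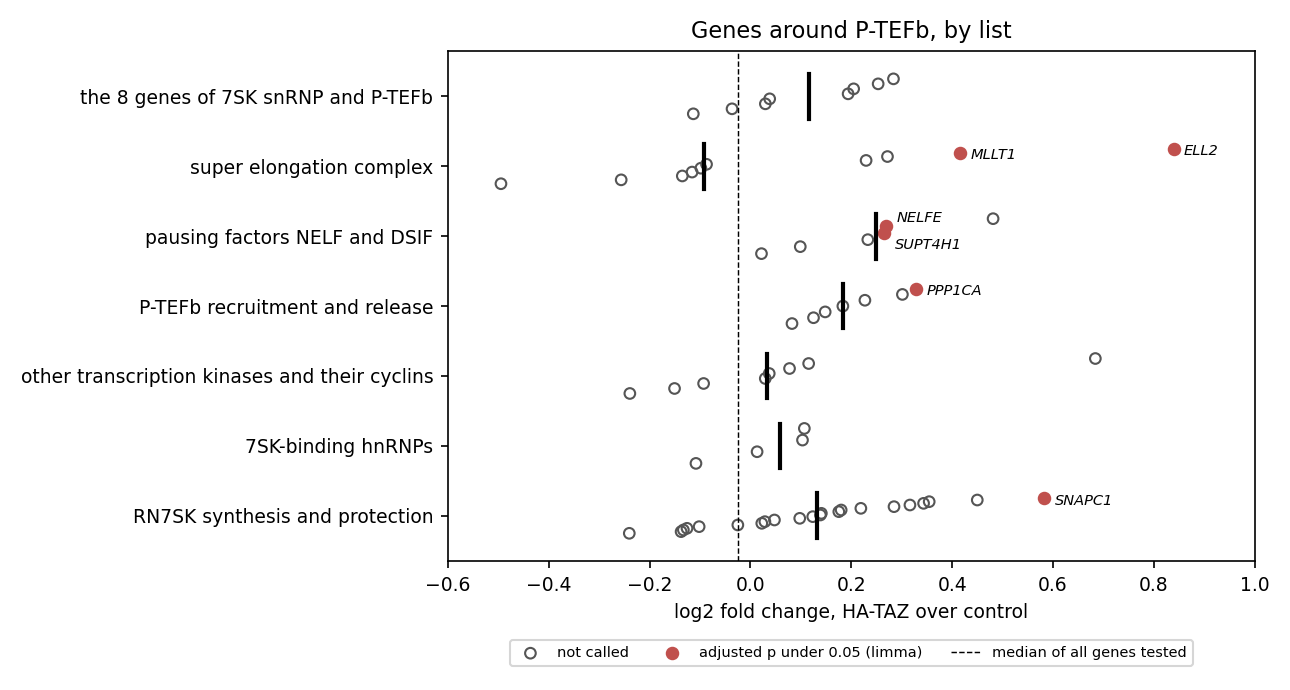
Log2 fold change, HA-TAZ over control on scaled TPM, of the 8 genes and of the tested genes of each list. Filled circles were called and are named, open circles were not, short bars are list medians and the dashed line is the median of all genes tested; the 6 called genes are all on the right, of which SUPT4H1 and NELFE are below 0 with TPM as deposited.

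The genes whose scaled values most resembled those of a member were sought among genes with a mean of at least 10 TPM, by the root mean square difference of log2 values centred per gene over the 6 libraries. For RN7SK these were SLC12A9 (0.019), RPL7 (0.025) and CEBPB (0.027), against a median of 0.177 over 9049 genes. For HEXIM1 they were HSP90AB1 (0.013), NOMO2 (0.013) and STAU1 (0.015), against a median of 0.15. For CDK9 they were DTYMK (0.036), EMC9 (0.037) and ATG4D (0.042), against 0.185. The named genes were picked as the closest of all genes compared, so their distances lie below the median by construction. The distances are descriptions over 6 libraries that share their scaling factors.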

How the data were processed

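Human KMS27 libraries, 3 of HA-TAZ and 3 of wild type cells, were analysed from the authors' deposited tables. Per the submitters' processing notes, kallisto 0.46.0 and sleuth 0.30.0 were used with GRCh37. The authors deposited TPM for 215170 transcripts and a table of their own sleuth test; per the file headers that table holds p-values, q-values, effects as a natural log and a mean natural log of estimated counts. TPM was summed per gene ID. A mean of 1 TPM or more was required, which left 22651 genes; these were tested with limma 3.58.1 (R 4.3.3) and its trend option on log2(scaled TPM + 1); fold changes on this scale understate those of low genes. Median-of-ratios factors over 21512 genes were 0.866, 0.967 and 0.890 for HA-TAZ and 1.21, 1.09 and 1.06 for control a, b and c. Transcripts used the same factors. P-values are two-sided with Benjamini-Hochberg adjustment over all genes or transcripts, at a threshold of 0.05; the scripts were tested on simulated data. Single values were compared with an exact permutation test. GENCODE release 29 gave gene types (for 82.5% of gene IDs), transcript types, overlaps and RN7SK sequences, and RefSeq the promoters; neither is of the files' build. Identity is over a global alignment (Biopython 1.88).

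The members and lists were chosen with earlier results of these data known. Named were all members, the called genes of each list or, with fewer than 2 called, the 2 with the smallest p, the 2 highest copies of RN7SK, and the 3 genes most like RN7SK, HEXIM1 and CDK9. Where a listed gene had several gene IDs, the one on the primary assembly was used. Alternatives changed the scaling (TPM as deposited, rescaled without RN7SK, RN7SL1 and RN7SL2, or over protein-coding genes), the pseudocount (0.1), the filter (none, or a mean TPM of 5) and the trend, or left out each library in turn. Chosen after seeing the data were the sum over all gene IDs of a symbol, the sum of RN7SK with its copies, scaled sums of the copies, of LARP7 coding transcripts and of plasma cell markers, that marker sum without JCHAIN, and the CCNT2 to CCNT1 ratio over coding transcripts.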

Additional observations from a re-analysis of the deposited data

How the results depend on the processing

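TPM carries no depth per library, so the spread over 3 libraries limits every value. No paired analysis was possible because no label ties the control columns, or their numbers, to the numbered wild type samples. With TPM as deposited the log2 fold change reversed for RN7SK (−0.10), LARP7 (−0.26), MEPCE (−0.011), HEXIM1 (−0.0070, gene and transcript ENST00000332499.2), CDK9 (−0.10), CCNT1 (−0.25), SUPT4H1 (−0.032), NELFE (−0.021), JMJD6 (−0.062), SYNCRIP (−0.19), HNRNPA2B1 (−0.20) and POLR3G (−0.00099). Rescaled without RN7SK, RN7SL1 and RN7SL2 it reversed for RN7SK (−0.041), LARP7 (−0.21), CDK9 (−0.042), CCNT1 (−0.20), JMJD6 (−0.0083), SYNCRIP (−0.14) and HNRNPA2B1 (−0.14), and scaled over protein-coding genes for LARP7 (−0.043) and CCNT1 (−0.035). CCNT2 was called at −0.40 as deposited and −0.35 rescaled, which made 1 member called lower in each.

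Genes called higher numbered 1057, and 261 as deposited, 329 rescaled, 660 with protein-coding scaling, 500 without filter, 461 without trend and 1513 with a mean TPM of at least 5; those called lower numbered 595, and 3068, 2821, 859, 191, 297 and 727. These settings moved the share of higher calls from 64.0% to 7.84%, 10.4%, 43.4%, 72.4%, 60.8% and 67.5%. List genes called higher numbered 6, and 1 as deposited, 2 rescaled, 2 without filter, 2 without trend and 9 with a mean TPM of at least 5; called lower were 7 as deposited, 7 rescaled, 2 with protein-coding scaling and 1 with a mean TPM of at least 5. Leaving out a library gave 95 to 365 genes called higher, 23 to 105 lower, and 0 to 1 list genes higher. It gave −0.019 to 0.056 for LARP7 and −0.11 to 0.039 for HEXIM2. With the leading transcript of each gene, the log2 difference was 0.36 for MEPCE over RN7SK, −0.64 for HEXIM2 over HEXIM1 and −0.46 for CCNT2 over CCNT1, which was −0.13 over coding transcripts. MEPCE and HEXIM1 stayed without a call in all 13 alternatives (limma adjusted p from 0.064 to 0.901 and 0.057 to 0.958). The cause of these changes was not tested.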
